A study of Homo sapiens with 6 samples.

Results

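The genes described here are 38 effector genes of myeloid and mast cells, chosen by name for what their proteins do. They encode granule proteases and antimicrobial proteins of neutrophils, receptors for colony-stimulating factors, Fc receptors with their adaptors, mast cell and basophil granule proteins, enzymes of leukotriene synthesis, subunits of the phagocyte NADPH oxidase, leukocyte actin-binding proteins and macrophage surface proteins. Of the 38 members, 31 had values among the 22413 genes listed. Ctsg, S100a8, S100a9, Csf2ra, Csf3r, Kit and Cybb were not analysed here. Of the 31, 19 reached a mean of 0.5 FPKM over all samples and were tested among 12163 genes, and 12 lay under that limit.

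The samples were BaF3-T315I cells, a mouse haematopoietic line that was stably transfected with BCR-ABL carrying the T315I mutation, the change that makes the kinase resistant to imatinib. There were 3 control samples and 3 samples exposed to 1.1 µM I13, an HDAC inhibitor derived from indole-3-butyric acid, for 48 h, and every sample carried the transfected BCR-ABL. The agent given to the controls and the time at which they were collected are not stated in the labels. The comparison asks which genes of the differentiated myeloid programme changed their mRNA after I13. The labels name the organism as human and the build as hg38, whereas each of the 22413 rows carries a mouse Ensembl identifier, so the genes were read as mouse genes and no sequence or coordinate is given. Nothing states that the replicates of a group were separate cultures, or whether the line was a single clone. The p-values then measure only the spread between these samples, which may be technical.

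Myeloid effector cells kill or signal with products that they store or switch on as they mature. Neutrophils make primary granules as promyelocytes and secondary granules later, and the sets differ in their proteins. Mast cells and basophils keep histamine and proteases on serglycin, and they respond through the high-affinity IgE receptor, whose gamma chain Fcer1g carries an activation motif shared with other Fc receptors. BaF3 is generally described as a pro-B line that grows on interleukin 3, a cytokine that also drives mast cells and basophils.

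Values are FPKM, fragments scaled by transcript length and by the size of the library, and each library held between 16762119 and 17722950 fragments. Levels of different genes are compared only on this scale, which accounts for length. Changes are differences of log2(FPKM + 0.1), I13 minus control, from limma, with their standard errors (SE). Calling required an adjusted p below 0.05, by Benjamini-Hochberg over all genes tested, together with a change of 0.58 or more in either direction. The labels number the replicates of each group but do not state that same-numbered samples were pairs, which was inferred from these same data. A second model that takes the numbers as a block is given where a call differed.

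Without the block, 0 of the 19 members tested were called in either direction, against 0.0329% of all genes called higher and 0.00822% called lower. At an unadjusted p below 0.05, 5 members were higher after I13, Srgn, Adgre1, Fcgr2b, Gzmb and Lyz2, and 0 were lower, against 7.79% and 10.8% of all genes. Voom on recovered fragments without the block also called 0 members, against 6 of 12162 genes tested. It had 6 members at an unadjusted p below 0.05, against 2355 of all genes. With the replicate block, 3 of the 19 members were called higher, Srgn, Tyrobp and Adgre1, which is 15.8% of the members against 1.36% of all genes. None were called lower, against 0.526% of all genes. With voom and the block, 5 were called higher, these 3 with Fcgr2b and Ncf1, against 3.08% of all genes. With replicate 1 left out of the blocked model, Tyrobp, Adgre1 and Fcer1g were called, among 83 of all 12163 genes. With replicate 2 or replicate 3 left out, 0 members and 0 of all genes were called. Without control replicate 2 and without the block, the log2 fold changes of Srgn, Tyrobp and Adgre1 were 0.73, 0.63 and 0.69, and without I13 replicate 3 that of Tyrobp was 0.63. In a culture sequenced as a whole, a change in the share of cells that express a gene and a change in the RNA per cell cannot be told apart.

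Taken as a list, 14 of the 19 members had a positive log2 fold change and 5 a negative one, with a median of 0.42. The median of all genes tested was -0.0053. A log2 fold change of at least 0.58 was reached by 7 members (36.8%), Srgn, Gzmb, Tyrobp, Adgre1, Fcgr2b, Ncf1 and Lyz2, against 6.08% of all genes. The 3 control values and the 3 I13 values did not overlap in 4 members, Lyz2, Fcgr2b, Srgn and Adgre1 (21.1%), all of them higher, against 9.82% of all genes. No member was lower without overlap, against 15.4% of all genes. Within same-numbered samples, 11 members were higher after I13 in all 3 pairs (57.9%, against 24.1% of all genes) and Mmp9 and Coro1a were lower in all 3 (10.5%, against 27.5%). The median of the members was 0.083 without control replicate 2 and 0.085 without I13 replicate 3, so its size rested on these samples.

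**Figure D1:**
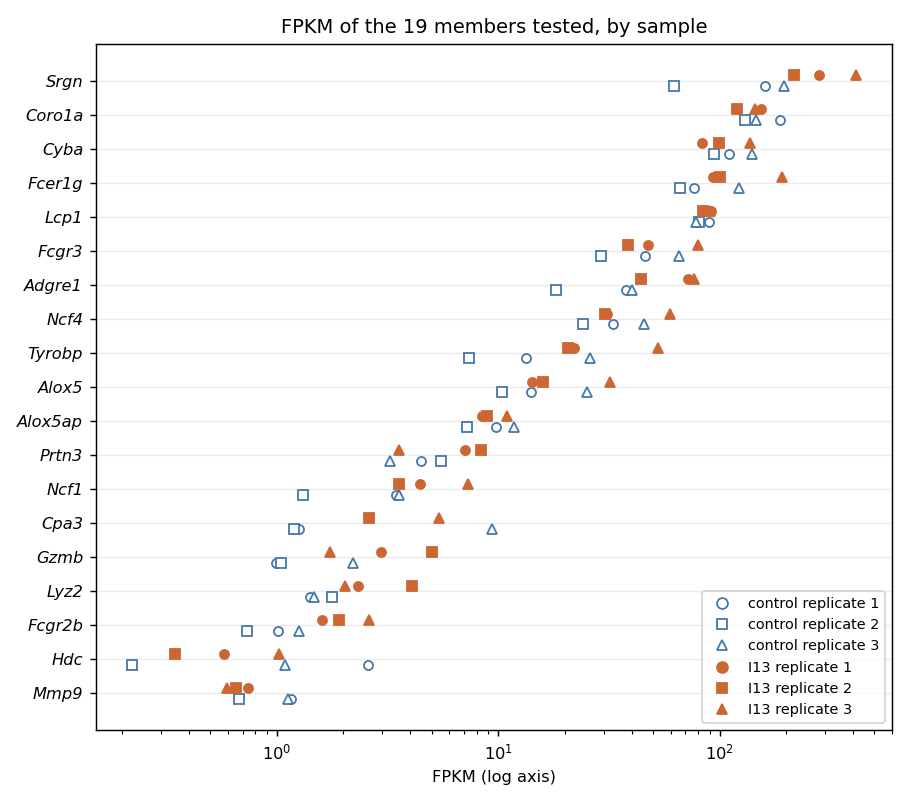
FPKM of the 19 members tested, on a log axis, with open blue symbols for the control samples and filled orange symbols for the I13 samples and 1 shape for each replicate number. Srgn reached 413.7 FPKM in I13 replicate 3, control replicate 2 was the lowest of all 6 samples in 12 members, and the control and I13 symbols did not overlap in Srgn, Adgre1, Lyz2 and Fcgr2b.

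Markers of the cell types a culture of this line could hold gave no single identity. Of the 10 mast cell and basophil markers with values, Fcer1a, Ms4a2, Tpsab1, Tpsb2 and Il1rl1 had a mean under 0.1 FPKM, and the summed level of the list, mostly Gata2, ran from 206.8 to 317.3 FPKM in the controls and from 155.9 to 263.0 FPKM after I13. Of the 7 neutrophil markers, 5 were under 0.1 FPKM, and the sum ran from 3.24 to 5.82 and from 3.70 to 8.58 FPKM. Of the 6 macrophage markers, Csf1r, Mrc1 and Mertk were under 0.1 FPKM, and the sum, mostly Adgre1, ran from 23.0 to 46.5 and from 53.1 to 87.2 FPKM. Of the 7 B lineage markers, Pax5, Ebf1, Vpreb1, Igll1 and Il7r were under 0.1 FPKM, so defining genes of a B cell precursor were absent or nearly so, while Cd79a lay between 14.1 and 27.5 FPKM. T lineage markers summed to at most 0.639 FPKM. The erythroid sum ran from 53.3 to 74.8 and from 74.9 to 84.6 FPKM, with the transcription factor gene Klf1 and the haemoglobin gene Hba-a1 higher at an unadjusted p below 0.05. Hba-a1, at 0.21 to 1.18 FPKM in the controls and 2.11 to 5.66 FPKM after I13, was called with the block, with a log2 fold change of 2.40 and limma's adjusted p at 0.0384. Its near copy Hba-a2 was not analysed here. The megakaryocyte sum ran from 106.2 to 166.4 and from 102.2 to 135.8 FPKM. The part of such cells in the changes of Srgn, Tyrobp and Adgre1 was not tested.

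Srgn, coding for serglycin, the proteoglycan that holds proteases and amines in the granules of mast cells and other leukocytes, had the highest mean over all 6 samples of any member, although Coro1a was higher in the controls (154.3 FPKM on average). Control replicates 1, 2 and 3 held 160.6, 62.19 and 194.2 FPKM, and the I13 replicates in the same order held 280.6, 216.9 and 413.7 FPKM. Every I13 sample was above every control, although I13 replicate 2 exceeded control replicate 3 by little. The mean was 139 ± 68.6 FPKM in the control and 303.7 ± 100.4 FPKM after I13 (SD, n = 3 each), which is 2.19-fold higher. The log2 fold change was 1.23 (SE 0.43, limma adjusted p = 0.205), and with the replicate block its standard error was 0.19 and its adjusted p = 0.0447. Srgn is also expressed by many other blood cells, and its level does not identify a mast cell.

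The other mast cell and basophil members had much lower levels than Srgn. Gzmb, the serine protease granzyme B of cytotoxic lymphocytes and mast cells, was listed for the controls at 0.995, 1.04 and 2.20 FPKM, and for I13 at 2.96, 5.01 and 1.73 FPKM. Its groups overlapped, because I13 replicate 3 lay under control replicate 3. The log2 fold change was 1.11 (SE 0.43, limma adjusted p = 0.236), resting on 106 control and 236 I13 fragments. Cpa3, carboxypeptidase A3 of mast cell granules, stood at 1.27, 1.196 and 9.39 FPKM in the controls and at 2.62, 2.60 and 5.39 FPKM after I13. Its highest value lay in control replicate 3, and its log2 fold change of 0.42 had a standard error of 0.76. Hdc, the histidine decarboxylase that makes histamine, ranged from 0.222 to 2.57 FPKM in the controls and from 0.346 to 1.03 FPKM after I13, with a log2 fold change of -0.53 and a standard error of 0.76. The chymase-like protease gene Mcpt8 of basophils and the tryptase gene Tpsab1 stayed at or under 0.33 FPKM in every sample.

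The Fc receptor genes split by subunit. Fcer1g, the gamma chain used by the IgE receptor and by activating IgG receptors, was abundant at 76.7, 66.2 and 121.9 FPKM in the controls and 93.4, 100.8 and 190.9 FPKM after I13. The I13 sample was higher in each of the 3 pairs, but the groups overlapped, and the log2 fold change was 0.51 (SE 0.32, limma adjusted p = 0.426, and 0.0509 with the replicate block). The IgE-binding alpha chain Fcer1a was listed at 0 in 5 of the 6 samples and at 0.239 FPKM in I13 replicate 2. The beta chain Ms4a2 did not exceed 0.0406 FPKM in any sample. At this depth a count of 0 allows up to 3 fragments, or 0.179 FPKM for a gene of 1000 bases in the smallest library, counting error only. For Fcer1a the smallest fitting length was 248 bases, at which this limit would be higher, but its only value above 0 does not settle its length. The cells held the shared gamma chain mRNA, while the mRNAs of the alpha and beta chains of the IgE receptor were listed at or near 0 within these limits.

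Fcgr3, the activating low-affinity IgG receptor that depends on Fcer1g, was much more abundant than its inhibitory counterpart Fcgr2b. Its values were 46.1, 29.1 and 65.3 FPKM in the controls and 47.4, 38.4 and 80.1 FPKM after I13, with a log2 fold change of 0.24 (SE 0.35). Replicate 3 was the highest sample in either group. Fcgr2b stood at 1.01, 0.735 and 1.25 FPKM in the controls and at 1.61, 1.91 and 2.61 FPKM after I13. These groups did not overlap, and the log2 fold change was 0.96 (SE 0.27, limma adjusted p = 0.143, 0.0663 blocked, and 0.00983 in blocked voom). The receptors are similar in sequence in their extracellular parts, and how the counting treated shared reads is not stated.

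Tyrobp, the adaptor DAP12 that carries activation signals of many myeloid receptors, measured 13.4, 7.40 and 25.9 FPKM in the controls against 22.0, 20.6 and 52.8 FPKM with I13. The groups overlapped, since control replicate 3 lay above I13 replicates 1 and 2, but the I13 sample was higher in every pair. The means were 15.5 ± 9.42 and 31.8 ± 18.2 FPKM (SD, n = 3 each), 2.05-fold higher after I13. Its change of 1.07 on the log2 scale had a standard error of 0.51 and, in limma, an adjusted p of 0.311. With the replicate block the standard error was 0.15 and the adjusted p = 0.0392.

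**Figure D2:**
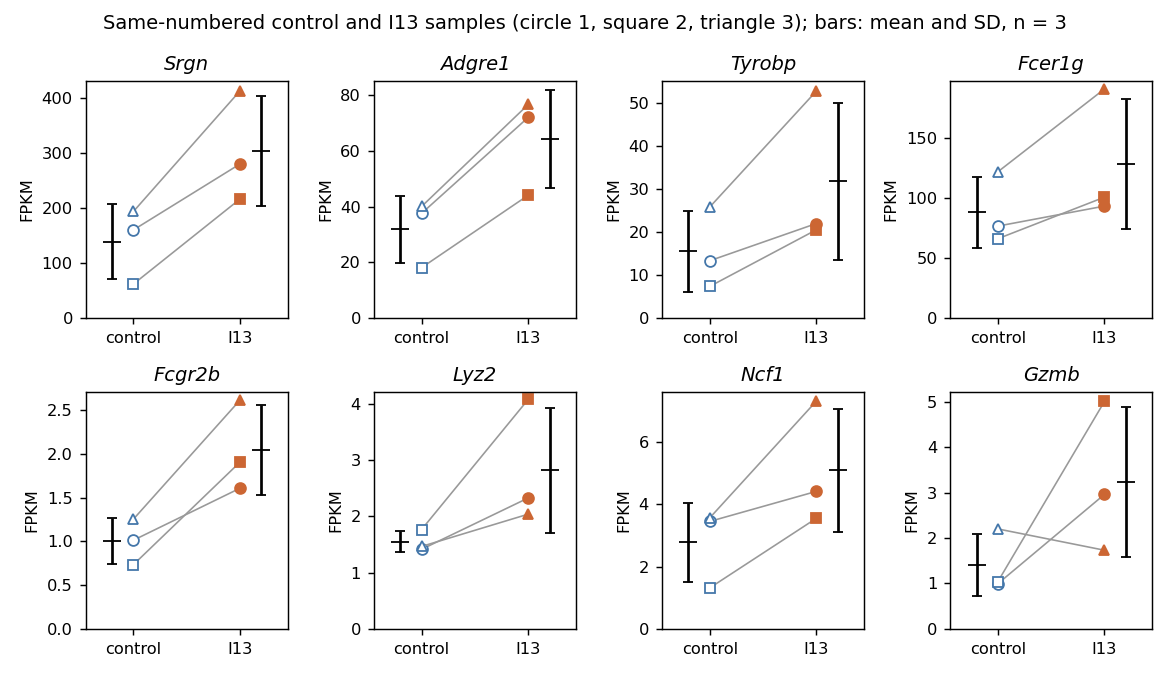
FPKM of 8 members in same-numbered control and I13 samples joined by lines, on axes from 0, with the mean and SD of each group (n = 3) in black beside the points. In Srgn, Adgre1, Tyrobp, Fcer1g, Fcgr2b, Lyz2 and Ncf1 all 3 lines go up, and in Gzmb the line of replicate 3 goes down from 2.20 to 1.73 FPKM.

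Adgre1 encodes F4/80, a surface protein used as a marker of mouse macrophages that is also found on eosinophils. It was listed at 37.6, 18.1 and 40.1 FPKM in the controls and at 72.1, 44.1 and 76.7 FPKM after I13. All I13 values were above all control values, with control replicate 2 and I13 replicate 2 lowest in their groups. The means were 32.0 ± 12.0 and 64.3 ± 17.6 FPKM (SD, n = 3 each), 2.01-fold higher. Its change of 1.05 on the log2 scale had a standard error of 0.34 and, in limma, an adjusted p of 0.18. Of all members tested it had the smallest adjusted p with the replicate block (0.0308, standard error 0.09), and the log2 ratios of its 3 pairs were 0.94, 1.28 and 0.93.

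The other macrophage and surface members, and the colony-stimulating factor receptor with values, had means under 0.5 FPKM. Csf1r, the receptor for macrophage colony-stimulating factor, did not exceed 0.0702 FPKM, and it was the only receptor gene of its group with values here. Lgals3, the galactose-binding lectin galectin-3 that macrophages express strongly, ran from 0.0607 to 0.122 FPKM in the controls and from 0.128 to 0.185 FPKM after I13, on 9 and 16 fragments. Anpep, which encodes the aminopeptidase CD13, was at 0.0546, 0 and 0.0275 FPKM in the controls and reached 0.0686, 0.0144 and 0.332 FPKM with I13. Of its 30 fragments in the I13 group, 24 came from I13 replicate 3.

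The neutrophil granule genes were nearly silent, with 3 exceptions. Of the primary granule genes, Mpo (myeloperoxidase) was at 0 in 5 of the 6 samples and Elane (neutrophil elastase) at 0 in all controls and in I13 replicate 3, with 0.115 and 0.0606 FPKM in I13 replicates 1 and 2. Of the secondary granule genes, Ltf (lactoferrin) reached 0.0166 FPKM, Ngp 0.0464 FPKM and Camp (cathelicidin) 0.225 FPKM in their highest samples. Prtn3, proteinase 3, a relative of Elane among the primary granule serine proteases, was by contrast well measured, at 4.46, 5.53 and 3.24 FPKM in the controls and 7.11, 8.34 and 3.56 FPKM after I13. Its I13 value was higher in every pair, and the log2 fold change was 0.46 (SE 0.33, limma adjusted p = 0.493, and 0.107 with the replicate block).

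Lyz2, the lysozyme of monocytes, macrophages and granulocytes, was low but did not overlap between the groups. Its near copy Lyz1 had a mean under 0.1 FPKM, and reads shared by these genes make its level uncertain. It was listed at 1.42, 1.77 and 1.47 FPKM in the controls and at 2.33, 4.08 and 2.04 FPKM after I13. Its log2 fold change was 0.76 (SE 0.27, limma adjusted p = 0.202, and 0.0796 with the replicate block), on 108 and 191 fragments. Mmp9, the gelatinase of neutrophil tertiary granules, had the opposite sign, from 0.987 ± 0.272 to 0.664 ± 0.0704 FPKM (SD, n = 3 each), with a log2 fold change of -0.48 (SE 0.30).

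Subunits of the NADPH oxidase, which makes superoxide in phagocytes, differed in level more than in change. Cyba, the membrane subunit p22phox, stood at 109.6, 93.9 and 139.5 FPKM in the controls and 83.6, 99.3 and 137.5 FPKM after I13, a log2 fold change of -0.11 with a 95% interval from -0.61 to 0.39. Ncf4, the cytosolic subunit p40phox, ran from 24.2 to 45.4 FPKM in the controls and from 30.5 to 59.6 FPKM after I13, with a log2 fold change of 0.21 (SE 0.31). Ncf1, the organizer subunit p47phox, was the lowest of the 3 at 3.45, 1.32 and 3.56 FPKM in the controls, against 4.42, 3.55 and 7.31 FPKM after I13. I13 replicate 2 lay just under control replicate 3, and the log2 fold change was 0.91 (SE 0.42, limma adjusted p = 0.295, 0.0715 blocked, and 0.0198 in blocked voom).

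Neither gene of leukotriene synthesis was called in any model. Alox5, the 5-lipoxygenase that oxidizes arachidonic acid, stood at 14.0, 10.4 and 25.1 FPKM in the controls and at 14.3, 15.95 and 31.9 FPKM after I13, with replicate 3 highest in each group. Its log2 fold change was 0.33, and the 95% interval ran from -0.60 to 1.25 without the block and from 0.02 to 0.63 with it. It was higher after I13 in all 3 pairs, and its adjusted p from limma with the block was 0.16. Alox5ap, the protein FLAP that presents the substrate to it, lay between 7.23 and 11.8 FPKM in all samples, with a log2 fold change of -0.0047 and an interval from -0.46 to 0.45. For Alox5ap the interval lies on both sides of 0.

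The pan-leukocyte actin-binding proteins were the steadiest abundant members. Lcp1, the actin bundler L-plastin, was listed at 89.6, 80.7 and 78.2 FPKM in the controls and 91.4, 84.2 and 90.6 FPKM after I13, with a log2 fold change of 0.10 (95% interval from -0.11 to 0.31). Coro1a, coronin 1A, stood at 187.0, 129.9 and 145.9 FPKM in the controls and 154.1, 119.4 and 144.9 FPKM after I13, with a log2 fold change of -0.14 (95% interval from -0.51 to 0.24). For Lcp1 the interval stays inside the fold change threshold on both sides, and for Coro1a as well.

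**Figure D3:**
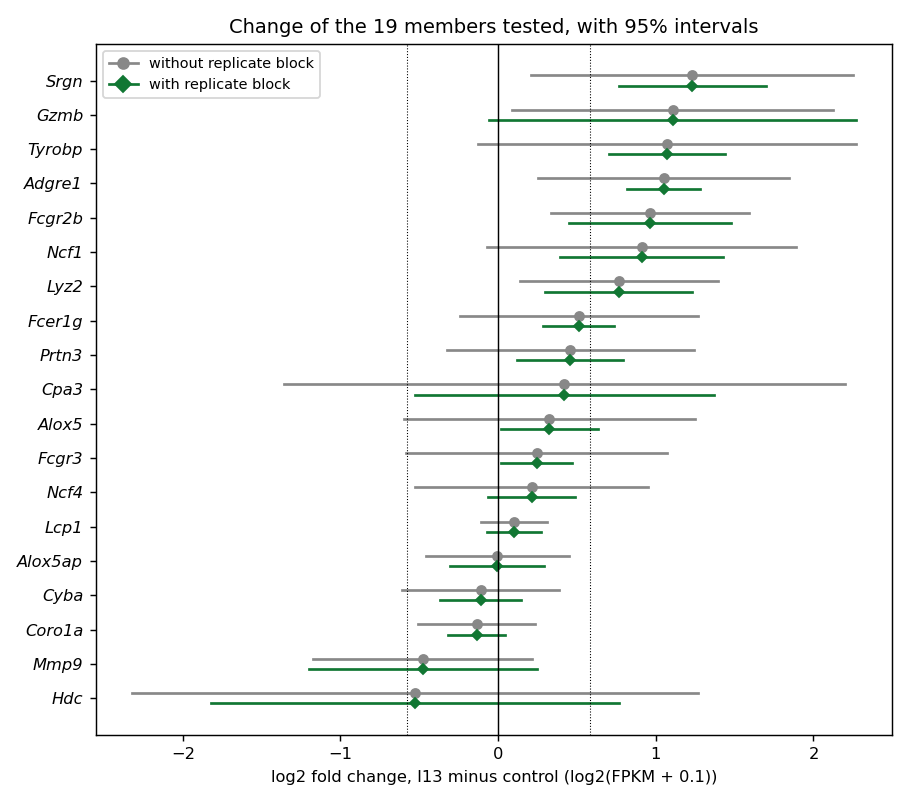
log2 fold change of the 19 members tested with 95% intervals, without the replicate block (grey circles) and with it (green diamonds), with dotted lines at 0.58 in either direction. With the block the intervals of Srgn, Adgre1 and Tyrobp began at 0.77, 0.82 and 0.70, above the upper dotted line, and those of Hdc, Cpa3 and Gzmb stayed wide.

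The members varied together between the samples of a group. Control replicate 2 was the lowest control in 15 of the 19 members (29.1% of all genes tested), and replicate 3 was the highest sample in 13 of the 19 both among the controls (31.8% of all genes) and among the I13 samples (29.6%). In Fcgr2b, Fcgr3, Fcer1g, Tyrobp, Srgn, Alox5, Ncf1, Ncf4 and Adgre1, control replicate 2 was the lowest and I13 replicate 3 the highest of all 6 samples, an order found in 6.32% of all genes. The median member lay 0.45 below its group mean in control replicate 2 and 0.40 above it in I13 replicate 3 on the log2 scale, while the median of all genes in these samples lay 0.04 above and 0.05 below. The members share the libraries, so this is a description of 6 samples and not an independent count of genes.

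The share of each gene's sum of squares that lay between the replicate numbers had a median of 65.8% over the members, against 42.2% over all genes tested, and the share between control and I13 was 27.0%, against 25.9%. Fcgr3 (91.0%), Ncf4 (87.5%), Alox5 (86.2%) and Cyba (82.2%) differed mainly by replicate number. A share over 50% between the replicate numbers was found in 11 members (57.9%), against 42.3% of all genes tested. Fcgr2b (74.4%), Lyz2 (60.2%), Adgre1 (58.3%), Srgn (53.4%) and Gzmb (50.2%) had a share over 50% between the conditions. These 5 are 26.3% of the members, against 28.9% of all genes tested. In Tyrobp 58.5% lay between the replicate numbers and 38.4% between the conditions, with 3.1% left over. What the replicate numbers stand for is not stated.

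**Figure D4:**
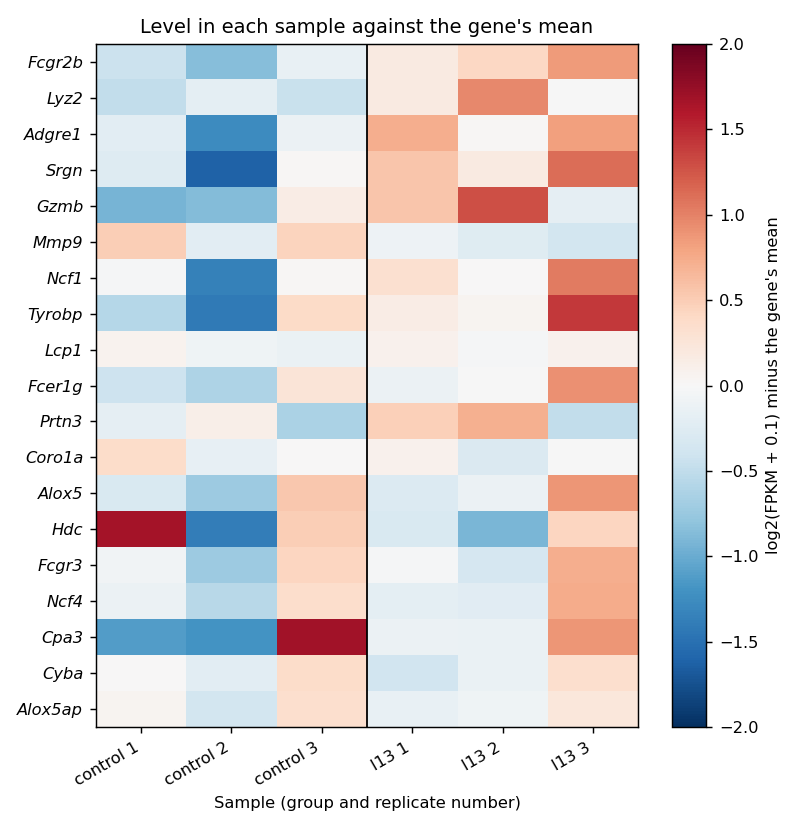
Level of each member tested in each sample as log2(FPKM + 0.1) minus the gene's mean over the 6 samples, with genes ordered by the share of their sum of squares between the conditions and a black line between control and I13. Control replicate 2 is blue and I13 replicate 3 red in Srgn, Adgre1, Tyrobp, Ncf1 and Fcer1g. The genes at the bottom differ more by replicate number than by condition.

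Further genes of the same functions were taken from lists chosen by function. Of 32 other mast cell and basophil genes, 20 were tested, 14 with a positive and 6 with a negative log2 fold change and a median of 0.39. The 4 mast cell and basophil markers tested went the other way, 1 positive and 3 negative, with a median of -0.36. Of the 20, none were called by limma without the block, where 3 were higher and 1 lower at an unadjusted p below 0.05. With the block 5 of them were called higher, Cd200r3, Rab27b, Stx11, Il6 and Ccl3. For this list and the following ones, the share of all genes called with the block was 1.36% in the higher and 0.526% in the lower direction. Cd200r3, a receptor of basophils and mast cells, was 2.87-fold higher in the mean of the I13 samples, and its I13 value was higher in all 3 pairs, although control replicate 3 lay above I13 replicates 1 and 2. Its log2 fold change of 1.59 had an adjusted p of 0.252 in limma, which the block lowered to 0.0354. Rab27b, a GTPase of granule secretion, did not overlap between the groups, from 4.39 to 5.30 FPKM in the controls and from 6.48 to 8.36 FPKM after I13, a log2 fold change of 0.61.

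Il6, a cytokine, and Ccl3, a chemokine, were highest in replicate 3 of either group, with Il6 at 8.58 FPKM in control replicate 3 and 29.2 FPKM in I13 replicate 3. The gene of the list with the highest mean over all 6 samples was Serpinb1a, an inhibitor of neutrophil proteases, from 25.2 to 286.0 FPKM in the controls and from 44.3 to 511.6 FPKM after I13, with replicate 2 lowest and replicate 3 highest in each group. Gata2, a transcription factor of mast cells and of progenitors, was higher than Serpinb1a in the mean of the controls and ran from 193.3 to 224.9 FPKM in the controls and from 144.1 to 210.4 FPKM after I13. The mast cell chymase Cma1 ran from 11.9 to 81.1 FPKM in the controls and from 8.56 to 45.9 FPKM after I13, highest in replicate 3 each time.

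Of 21 other granulocyte genes 5 were tested, and 1 was called higher with the block, Anxa1, annexin A1, which restrains inflammation, with a log2 fold change of 1.10 and limma's adjusted p falling from 0.167 to 0.0361. Of 20 other macrophage and monocyte genes 5 were tested, all with a positive log2 fold change, and the chemokine receptor Ccr2 was called with the block. It ran from 10.4 to 13.01 FPKM in the controls and from 19.1 to 26.7 FPKM after I13. The list of 20 Fc receptor signalling genes had a median of -0.02, with 8 genes higher and 11 lower of 19 tested. Its only gene called with the block was the docking protein Dok2, lower at 38.4 to 42.0 FPKM after I13 against 58.8 to 69.1 FPKM in the controls. Fcgr1, the high-affinity IgG receptor, did not overlap either, from 3.66 to 6.30 FPKM in the controls and from 6.35 to 9.32 FPKM after I13, with an adjusted p of 0.0508 from limma with the block.

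Of the other oxidase genes, Rac2 and Rap1a, small GTPases, were higher at an unadjusted p below 0.05 without overlap, with log2 fold changes of 0.39 and 0.55. Of the other genes of leukotriene and prostaglandin synthesis, 4 of 9 were tested, all with a positive log2 fold change, none called by limma in either model and 0 at an unadjusted p below 0.05 without the block. Ltc4s, the synthase of leukotriene C4, was at 0 in 5 of the 6 samples. Among the genes of granule processing, Ctsc, the dipeptidase cathepsin C that activates granule proteases, was called higher with the block, from 30.5 to 52.5 FPKM on average. Csf2rb and Csf2rb2, the signalling chains shared by receptors of interleukin 3 and related cytokines, were the most abundant cytokine receptor genes, with log2 fold changes of 0.83 and 1.02 and an adjusted p with the block of 0.0313 and 0.0312 from limma. These 2 genes are near copies, and how shared reads were split between them is not stated.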

How the data were processed

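mRNA of 3 control and 3 I13 samples was sequenced from stranded libraries, and samples were grouped and numbered from the labels. The authors deposited FPKM values, without pooling of replicates. The submitters' processing notes name Trimmomatic, HISAT2, Cufflinks, HTSeq and hg38, without roles, and the annotation is not given in the sources used here. Whole fragments and gene lengths that give all 6 values were found for 22412 of 22413 genes within 0.01 fragments, and their totals set the precision of low genes. For genes of few fragments these are the smallest whole numbers that fit.

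limma 3.58.1 in R 4.3.3 was applied to log2(FPKM + 0.1) with a trend in eBayes, in the 12163 genes that reached a mean of 0.5 FPKM. The fits were also run on simulated data without a replicate effect, which cannot decide between the fits with and without the block. The log2 fold change understates the change of low genes. Deviations from the group means correlated across genes at 0.15, 0.30 and 0.22 in same-numbered samples and from -0.26 to 0.05 in others, so the numbers from the labels were taken as pairs. Alternatives were other pseudocounts, filters, scalings and eBayes settings, the replicate block, voom, and samples or pairs left out. Members, lists and tests were chosen with earlier results of these data known. Every member was accounted for. Values by sample are given for members without overlap, past 0.58, at an unadjusted p below 0.05 in either fit or at a mean of at least 100 FPKM, and for other members chosen after their values were seen. From the further lists, genes called, most abundant or meeting the same conditions were named, and Cma1, Gata2, Ltc4s and Cd79a were named after their values were seen. Python 3.11.15 with matplotlib 3.10.9 was used for the figures. Some genes of the further lists are not reported here.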

Additional observations from a re-analysis of the deposited data

How the results depend on the processing

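The replicate block raised the members called from 0 to 3 and the genes called from 5 to 230, and with voom these were 5 and 502. It changed no other call among the members. Genes called numbered 2 under quantile normalization, under median-ratio scaling and at a pseudocount of 0.01, and 8 with untrended eBayes or with every gene kept. With a sample or a pair left out, the genes called ran from 0 to 83, the members called from 0 to 3 and the members without overlap from 5 to 11, where fewer samples make separation easier. The matching numbers of all genes without overlap were not counted. The 3 members called in the blocked fit without replicate 1 were Fcer1g, Tyrobp and Adgre1 (Srgn at an adjusted p of 0.0504 in limma). Without replicate 2 or 3 there were 0, and 0 of all genes. At an unadjusted p below 0.05 these 2 fits held 6 and 10 members, against 1638 and 3160 of 12163 genes. The log2 fold change of Srgn ran from 0.731 without control replicate 2 to 1.551 without control replicate 3, that of Tyrobp from 0.630 to 1.526 for the same samples, and that of Adgre1 from 0.685 without control replicate 2 to 1.300 without I13 replicate 2.

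Of the 19 members, 8 reversed sign under at least 1 alternative. Alox5ap was at 0.015 with median-ratio scaling and 0.025 as TPM, and Cpa3 at -0.037 with voom and the block. With samples left out the ranges were -0.061 to 0.521 for Fcgr3, -0.071 to 1.365 for Cpa3, -1.348 to 0.178 for Hdc, -0.033 to 0.676 for Alox5, -0.193 to 0.159 for Alox5ap, -0.104 to 0.440 for Ncf4, -0.309 to 0.050 for Cyba and -0.252 to 0.010 for Coro1a. In the blocked model, Hdc was at 0.20, Alox5ap at 0.092 and Cyba at 0.029 without replicate 1, and Alox5ap at 0.046 without replicate 3. The cause was not tested. Over all single members, 364 comparisons kept their sign and call, although not always their size, 11 passed the threshold anew and 22 reversed. Depth limits the 12 members not tested, which rest on 1 to 36 fragments each over the 6 samples, against 299 to 85490 for those tested.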
